A study of Homo sapiens with 6 samples.

Results

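The comparison described here sets a population of NCI-H460 cells grown as spheroids, which the labels call rich in cancer stem cells (CSC-rich), against the parental NCI-H460 cells, without the agent PNAs-A15. NCI-H460 is a long-established human line of non-small cell lung cancer. Genes were kept when their detection p fell under 0.05 on 2 or more of these 4 arrays, which left 11750 of the 20046 genes named by a probe. The 4 arrays were untreated CSC-rich cells, CSC-rich cells given a scramble control, untreated parental cells, and parental cells given the scramble control. The labels give 6 h as the treatment time. Each is a single array of one culture label, so no group had a replicate. The 2 arrays of a population also differ in treatment, so the spread between its cultures was not measured. Serum, at 10%, is named for the parental culture alone, so the medium and the population cannot be told apart. The CSC-rich population comes from 1 line, and the labels give neither its number of passages as spheroids nor a marker by which it was sorted. The arrays of cells treated with PNAs-A15 were left out.

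A cell that divides makes the proteins of DNA replication as it enters S phase and those of the spindle and the kinetochore as it approaches mitosis, and cells that leave the cycle stop making both. The second of these sets is known to be repressed in resting cells through a promoter element called the cell cycle genes homology region (CHR), and the first through sites for E2F transcription factors. Tumour spheroids are dense bodies in which oxygen falls towards the core, and low oxygen is known to stabilise the hypoxia-inducible factors, which switch on genes of glucose uptake, blood vessel growth and mitophagy. Spheroid culture without serum is a usual way to enrich for cells with stem cell properties.

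Genes of cell division were far lower in CSC-rich cells, and genes of the response to low oxygen, early response factors and several secreted proteins were higher. By the rule used throughout, a gene passed the test when limma's moderated test gave an adjusted p (Benjamini-Hochberg over the 11750 genes) under 0.05 and the difference had the same sign in the untreated pair and in the scramble pair. Of the genes tested, 1121 were higher in CSC-rich cells (9.54%) and 915 were lower (7.79%), together 2036 (17.3%). The condition on sign removed no gene, since the same 2036 had an adjusted p under 0.05 in limma's test without it. It is therefore no separate support for the calls. The counts of each gene list below stand beside these shares of all genes, and a list near them shows nothing particular to its genes. Unadjusted, 3774 had a p under 0.05 (32.1%). In both pairs, 659 genes were at least 2-fold higher (5.61%) and 544 at least 2-fold lower (4.63%). The large differences lay mostly on the lower side: 83 genes were at least 4-fold higher and 143 at least 4-fold lower in both pairs, and 9 genes were at least 8-fold higher against 50 at least 8-fold lower. The median log2 difference of all genes was 0.09. The sign was the same in both pairs for 74.3% of genes, both CSC-rich arrays lay above both parental arrays for 39.6% and below them for 30.4%, so arrays that do not overlap are common here.

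These p-values rest on 1 residual degree of freedom. Without the detection filter limma called 0 of 20046 genes, 4215 of them at an unadjusted p under 0.05. Array signals or the sizes in both pairs are therefore given beside some of the calls. For other named calls the text gives mostly the mean difference over both pairs, not the size in each, so their agreement between pairs cannot be read from it. Of the 2036 calls 55.1% were higher in CSC-rich cells, a share that was 42.9% when the arrays were scaled to their medians in place of quantile normalization and 35.6% without normalization, with all-gene medians of -0.07 and -0.11.

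**Figure D1:**
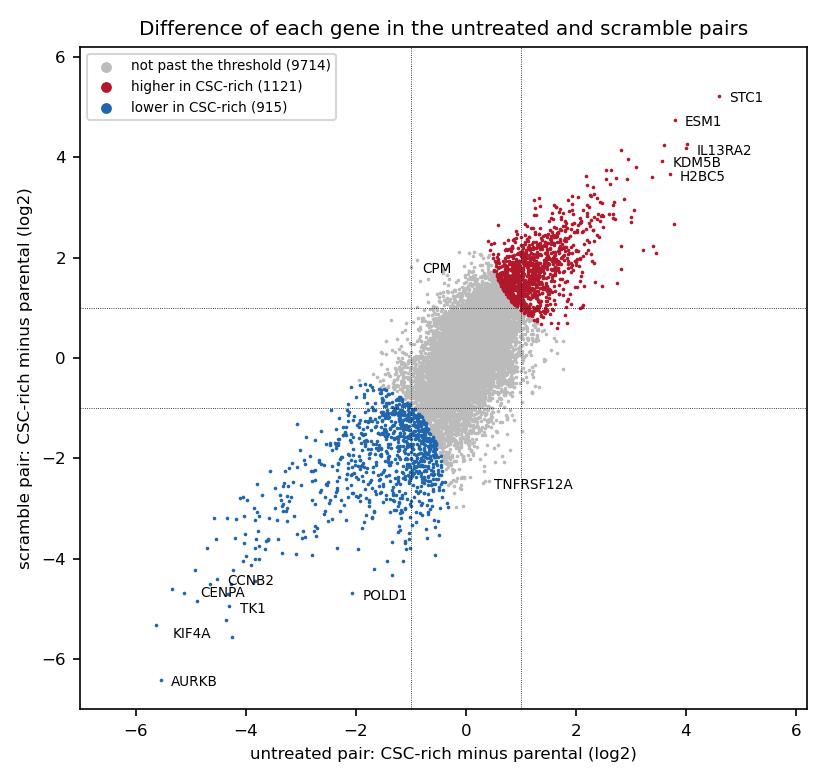
Each point is 1 of 11750 genes, with the log2 difference CSC-rich minus parental in the untreated pair on the horizontal axis and in the scramble pair on the vertical axis. The 1121 genes past the threshold on the higher side and the 915 on the lower side lie along the diagonal, dotted lines mark a 2-fold difference, and the lower arm reaches farther, to AURKB, than the higher arm, to STC1.

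The gene with the largest fall was AURKB, the kinase of the chromosomal passenger complex that corrects faulty attachments of chromosomes to the spindle. It had log2 signals of 5.86 and 5.42 on the untreated and scramble arrays of CSC-rich cells, against 11.40 and 11.84 on those of parental cells. Both parental arrays lay far above both CSC-rich arrays, of which only 1 detected the gene. The log2 difference was -5.98 ± 0.33 (SE, n = 2 arrays per population), with a limma adjusted p of 9.3e-06. KIF4A, a kinesin that shapes chromosomes and the spindle midzone, was at 5.16 and 5.47 on the CSC-rich arrays, against 10.79 and 10.80 on the parental arrays. It was not detected on either CSC-rich array and was therefore at least 31.5-fold lower there (limma adjusted p 9.3e-06). An array measures a whole culture, so a smaller share of dividing cells and less of each RNA per dividing cell cannot be told apart.

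Cyclins and the kinases they activate were mostly lower: 14 of 19 tested members were lower and none higher, with a median log2 difference of -2.04 beside 0.09 for all genes. CCNB2, a B-type cyclin of mitotic entry, had log2 signals of 7.88 and 8.16 in untreated and scramble-treated CSC-rich cells, against 12.40 and 12.57 in the matching parental cells. The populations did not overlap, and the fall was 22.1-fold (log2 -4.47 ± 0.30, limma adjusted p 1.5e-05). CCNA2, the cyclin of S phase and G2 (log2 difference -3.89), and CDK1, the kinase that drives mitosis (-3.39), fell too. The cyclins of G1 did not follow one direction: CCND3 fell (-1.53), whereas CCND1 (0.58), CCND2 (0.24) and CCNE1 (-0.55) did not pass the test.

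The kinetochore is the protein plate on which spindle fibres pull, and the spindle checkpoint holds the cell until every chromosome is attached. Of 41 tested members, 34 were lower and none higher, 31 of them at least 2-fold in both pairs, with a median of -2.40. CENPA, the histone variant that marks the centromere, had log2 signals of 5.59 and 5.83 on the CSC-rich arrays, against 10.71 and 10.51 on the parental arrays, and was detected on neither CSC-rich array. It was at least 27.8-fold lower in CSC-rich cells. Its partners in the inner plate fell too, CENPN with a log2 difference of -3.12, CENPH of -2.19 and CENPU of -1.22. The outer-plate fibre NUF2 fell to 6.36 and 6.52 on the CSC-rich arrays, against 10.14 and 9.96 on the parental arrays. Its partner NDC80, not detected in CSC-rich cells, was at least 9.47-fold lower. Checkpoint kinases BUB1 (-3.77) and TTK (-3.03) and the checkpoint protein MAD2L1 (-2.03) fell as well, but the checkpoint protein BUB3 (-0.11) and MIS12 (0.03), a core of the kinetochore, did not pass the test.

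Mitotic kinesins and spindle factors made up the list with the lowest median, -2.90, in which 25 of 27 tested members were lower. KIF20A, a kinesin of cytokinesis, was at 6.48 and 7.12 on the CSC-rich arrays, against 11.82 and 11.72 on the parental arrays, a 31.3-fold fall. PLK1, the kinase that starts spindle assembly, was at 6.39 and 7.15 in CSC-rich cells, against 10.36 and 9.99 in parental cells (log2 difference -3.40 ± 0.35, limma adjusted p 0.00014). The scramble array of CSC-rich cells lay above the untreated one for both genes, and neither reached the parental level. TPX2 (-4.22), KIFC1 (-4.91), the spindle motor KIF11 (-3.15) and AURKA, the kinase of spindle poles (-2.63), fell too. The exceptions were CKAP5, a microtubule polymerase (-0.59), and ECT2, an activator of cytokinesis (-0.41), which did not pass the test.

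Exit from mitosis depends on the anaphase-promoting complex, a ubiquitin ligase. UBE2C, its ubiquitin-conjugating enzyme, had log2 signals of 8.59 and 8.64 in CSC-rich cells, against 13.23 and 13.14 in parental cells, a 23.8-fold fall. CDC20, its mitotic activator, was at 9.63 and 9.72 in CSC-rich cells, against 13.45 and 13.50 in parental cells. Its substrate PTTG1 (securin, -3.34) and its inhibitor FBXO5 (-1.80) were lower as well. Among the subunits, ANAPC7 fell (-2.19), while ANAPC1, ANAPC4, ANAPC5, ANAPC10, ANAPC11, ANAPC13, CDC16 and CDC23 lay between -0.68 and 0.48 and did not pass the test. Over the list, 6 of 19 tested members were lower. Condensin, which compacts chromosomes, and cohesin, which holds sister chromatids together, were divided: NCAPG (-3.73), NCAPG2 (-3.25) and NCAPD2 (-2.71) of condensin fell, whereas the cohesin subunits SMC1A (-0.52), SMC3 (-0.53), RAD21 (-0.52) and STAG2 (0.12) did not pass the test. The call was 8 of 16 tested members lower.

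Promoters of these genes were searched for the CHR, with the letters TTTGAA in its usual form and TTCGAA in another, and for the CCAAT box, on both strands of the 300 bases from 250 before to 50 after the start of each gene in RefSeq (GRCh38.p14). Of the 11750 tested genes, 9452 had a promoter in that table. Stretches from 4 mitotic genes that passed the test on the lower side are shown because they hold both elements. They run from 120 bases before to 30 after the start, in the gene's direction. Capitals mark the usual form of the CHR and the CCAAT box, on either strand.
CCNB2, chr15:59105026-59105175, plus strand: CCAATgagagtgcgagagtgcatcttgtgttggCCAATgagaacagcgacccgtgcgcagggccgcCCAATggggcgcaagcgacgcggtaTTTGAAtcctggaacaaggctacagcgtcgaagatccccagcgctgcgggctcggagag
PLK1, chr16:23678769-23678918, plus strand: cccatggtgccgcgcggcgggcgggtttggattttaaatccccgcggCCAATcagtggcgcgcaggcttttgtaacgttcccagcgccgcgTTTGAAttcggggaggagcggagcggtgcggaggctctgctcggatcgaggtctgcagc
CDC20, chr1:43358861-43359010, plus strand: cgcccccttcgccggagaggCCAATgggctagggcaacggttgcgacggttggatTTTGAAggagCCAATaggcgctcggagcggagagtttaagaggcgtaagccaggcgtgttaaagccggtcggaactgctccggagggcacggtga
KIF4A, chrX:70289984-70290133, plus strand: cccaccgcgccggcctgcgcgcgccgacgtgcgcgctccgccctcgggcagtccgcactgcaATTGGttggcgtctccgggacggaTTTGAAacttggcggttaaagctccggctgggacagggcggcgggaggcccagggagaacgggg

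In each of these 4 promoters TTTGAA lay in the same 150 bases as at least 1 CCAAT box. A CHR in either form was found in 70% of the 40 promoters of genes at least 8-fold lower in both pairs, in 30.3% of the 406 at least 2-fold lower, in 13.9% of the 519 at least 2-fold higher, and in 12.3% of the promoters of all tested genes. CCAAT was found in 75% of the 40, against 36.5% of those of tested genes. The box was not particular to lists that fell, at 82.4% for histone genes, 73.7% for cholesterol synthesis and 72.7% for circadian genes. By list, 75% of the kinesin and spindle promoters held TTTGAA, against 10.7% of the promoters of tested genes. These shares describe the letters in a window and were not tested.

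Genes that copy DNA were lower by less. Of 45 tested members of the origin licensing and replication fork list, 27 were lower and none higher, with a median log2 difference of -1.23, which was -1.23 in both the untreated and the scramble pair. ORC1, a subunit of the complex that marks origins, had log2 signals of 7.53 and 7.16 in CSC-rich cells, against 9.51 and 9.91 in parental cells (log2 difference -2.37 ± 0.33, limma adjusted p 0.00085). CDC45, which starts the replicative helicase, was at 8.90 and 9.42 in CSC-rich cells, against 12.22 and 12.34 in parental cells. Both populations stayed apart for each gene. Of the ring of the MCM helicase, MCM5 (-2.33), MCM7 (-2.01), MCM2 (-1.76) and MCM4 (-1.71) fell, and MCM3 (-0.95) and MCM6 (-0.75) did not pass the test. Of the origin complex, ORC1 alone passed it: ORC2, ORC3, ORC4, ORC5 and ORC6 lay between -0.08 and 0.65. PCNA, the sliding clamp, fell by 1.16 on the log2 scale.

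DNA polymerases followed a similar division. POLD1, the catalytic subunit of polymerase delta, was at 6.64 and 4.95 on the CSC-rich arrays, against 8.70 and 9.64 on the parental arrays. Its log2 difference was -2.06 in the untreated pair and -4.69 in the scramble pair, so the size differed between pairs though the sign did not. POLE, of polymerase epsilon, fell (-2.11), with POLA2 (-1.75) and the primase PRIM1 (-1.97), whereas POLA1 (-0.81) and POLD2 (-0.99) did not pass the test.

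Precursors of DNA are made by a short set of enzymes, and those bound to S phase fell most. TK1, thymidine kinase, had log2 signals of 6.88 and 6.46 in CSC-rich cells, against 11.18 and 11.41 in parental cells, a 24.6-fold fall (limma adjusted p 1.5e-05). RRM2, the regulated subunit of ribonucleotide reductase, fell to 7.66 and 7.39 in CSC-rich cells, against 11.41 and 11.39 in parental cells. RRM2B, the subunit used for repair in resting cells, went the other way and was higher, at 9.40 and 9.75 in CSC-rich cells, against 8.30 and 7.90 in parental cells (log2 difference 1.47 ± 0.32, limma adjusted p 0.011). The probes of RRM2B disagreed in size, and its call did not hold without normalization or when all its probes were averaged. Purine synthesis did not move with the thymidine enzymes: GART (-0.47), PAICS (-0.13), ATIC (0.10) and PPAT (0.39) did not pass the test. The list had 6 lower and 1 higher of 18 tested.

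Repair of broken and cross-linked DNA uses the sister chromatid, and 13 of the 23 tested genes of homologous recombination and the Fanconi pathway were lower, with a median of -1.45. BLM, the helicase of Bloom syndrome, had a log2 difference of -2.84, UBE2T of -2.56, RAD54L of -2.02 and BRCA1 of -1.97. BRCA1 had log2 signals of 5.73 and 6.29 in CSC-rich cells, against 8.05 and 7.91 in parental cells. The single higher member was FANCF, at least 1.90-fold higher, since no parental array detected it. BRCA2, FANCA and FANCD2 missed the detection filter and were not tested. In mismatch and base excision repair, which do not need a sister chromatid, 4 of 14 tested members were lower, with a median of -0.61, and NEIL3 (-1.59) fell most.

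Sites for E2F were searched in 3 forms on both strands: TTCGCGC was one, TTGGCGC was another and the last was TTCCCGC. These 3 forms can overlap one another in a palindrome. The promoters below are those of an origin factor, a helicase subunit and a helicase cofactor. They run from 120 bases before to 30 after the start, with a match on either strand in capitals.
ORC1, chr1:52404394-52404543, minus strand: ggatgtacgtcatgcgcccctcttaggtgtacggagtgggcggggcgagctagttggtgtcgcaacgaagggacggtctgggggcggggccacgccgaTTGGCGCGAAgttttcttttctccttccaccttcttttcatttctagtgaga
MCM2, chr3:127598291-127598440, plus strand: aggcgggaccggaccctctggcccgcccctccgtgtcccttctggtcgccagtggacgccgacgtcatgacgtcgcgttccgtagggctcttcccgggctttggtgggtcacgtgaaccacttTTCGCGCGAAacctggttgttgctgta
GINS2, chr16:85688925-85689074, minus strand: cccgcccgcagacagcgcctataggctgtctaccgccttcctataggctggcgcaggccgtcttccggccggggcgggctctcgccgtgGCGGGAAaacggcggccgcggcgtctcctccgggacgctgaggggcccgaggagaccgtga

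An E2F form was present in 69.2% of the 39 promoters of the replication list and in 70% of the 20 of the recombination and Fanconi list, against 16.9% of those of tested genes and 16.7% of the kinesin and spindle promoters. TTTGAA showed the opposite order, at 2.56% and 5% of the replication and recombination promoters against 75% for the kinesins and spindle factors. An E2F form was common in other lists too. It was in 61.5% of promoters for mismatch and base excision repair, 57.1% for condensin and cohesin and 42.1% for cholesterol synthesis. The median log2 difference was -2.90 for the kinesin and spindle list, -1.45 for the recombination list and -1.23 for the replication list. No relation between letters and sizes was tested.

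**Figure D2:**
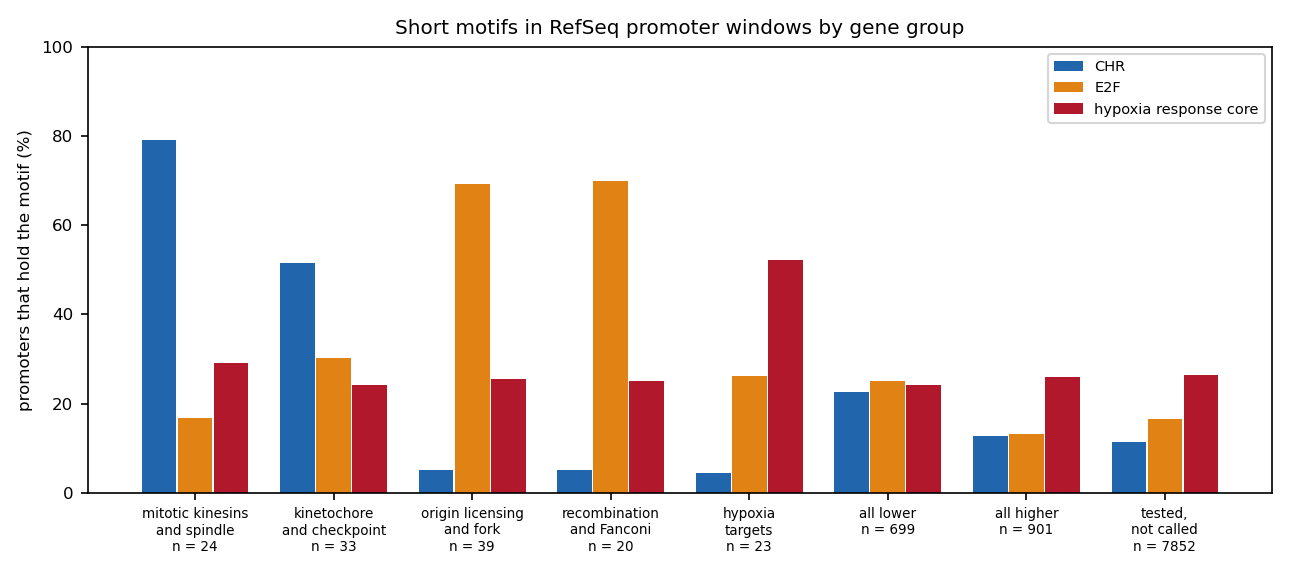
Bars give the percent of RefSeq promoter windows that hold a CHR in either form, any of 3 E2F forms or the hypoxia response core ACGTG, for 5 gene lists and for all lower, all higher and uncalled genes, with the number of promoters under each group. Of the groups shown, CHR bars are tallest for mitotic lists and E2F bars for replication (69.2%) and recombination (70%). The hypoxia core bar is tallest for hypoxia targets (52.2%), though a list not shown reaches 58.8%.

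The transcription factors that drive these programmes were divided. FOXM1, the activator of G2 and mitosis genes, had log2 signals of 5.72 and 5.32 in CSC-rich cells, against 10.08 and 10.54 in parental cells. Only 1 CSC-rich array detected it, and the log2 difference was -4.79 ± 0.33 (limma adjusted p 1.5e-05). E2F2, an activating E2F, fell (-3.15). Of the late repressor forms, E2F7 fell as well (-1.96), and E2F8, not detected in CSC-rich cells, was at least 2.55-fold lower. E2F1 (-0.09), E2F3 (0.09) and MYBL2 (-1.01) did not pass the test. E2F5, a repressive E2F that acts in resting cells, was higher, at 11.41 and 11.78 in CSC-rich cells, against 10.23 and 9.77 in parental cells (log2 difference 1.59). Of 16 tested, 5 were lower and 1 was higher.

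Brakes on the cycle rose in part. BTG1, an antiproliferative protein, had log2 differences of 1.96 in the untreated and 2.70 in the scramble pair (mean 2.33 ± 0.32, limma adjusted p 0.00091). YPEL5 (2.01), the repressor HBP1 (1.51) and TOB1 (1.47) were higher too. The best known inhibitors of cyclin-dependent kinases did not pass the test. CDKN1A (p21) was at 12.12 and 12.26 in CSC-rich cells, against 12.51 and 12.39 in parental cells (log2 difference -0.26). CDKN1B (p27) was at 10.04 and 10.54 in CSC-rich cells, against 9.57 and 8.69 in parental cells, a log2 difference of 1.16 ± 0.37 with a limma adjusted p of 0.052. CDKN1C missed the detection filter. CDKN3, a phosphatase named with the inhibitors but made at mitosis, fell by 3.61 on the log2 scale. Of 16 tested members 5 were higher and 2 lower.

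MKI67, the antigen of dividing cells, had log2 signals of 5.19 and 5.36 in CSC-rich cells, where it was not detected, against 9.18 and 9.31 in parental cells. It was at least 10.8-fold lower (limma adjusted p 2.4e-05). Chromatin factors that follow the replication fork fell with it: 12 of 22 tested members were lower and none higher, with a median of -1.09. ASF1B (-3.29), a histone chaperone, HMGB2 (-2.77), CHAF1A of the chromatin assembly factor (-2.47) and LMNB1, the lamin of dividing cells (-2.18), led them. ASF1A, the sister chaperone that is not tied to S phase, did not pass the test (0.53). Histone genes had no common direction, with 4 higher and 3 lower of 18. H2BC5 was at 10.83 and 10.39 in CSC-rich cells, against 7.12 and 6.73 in parental cells, and H4C8 at 9.63 and 9.63 in CSC-rich cells, against 6.69 and 5.67 in parental cells. H4C3, by contrast, fell by 2.04. Histone genes have near-identical copies, so which copy a probe reads is uncertain.

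**Figure D3:**
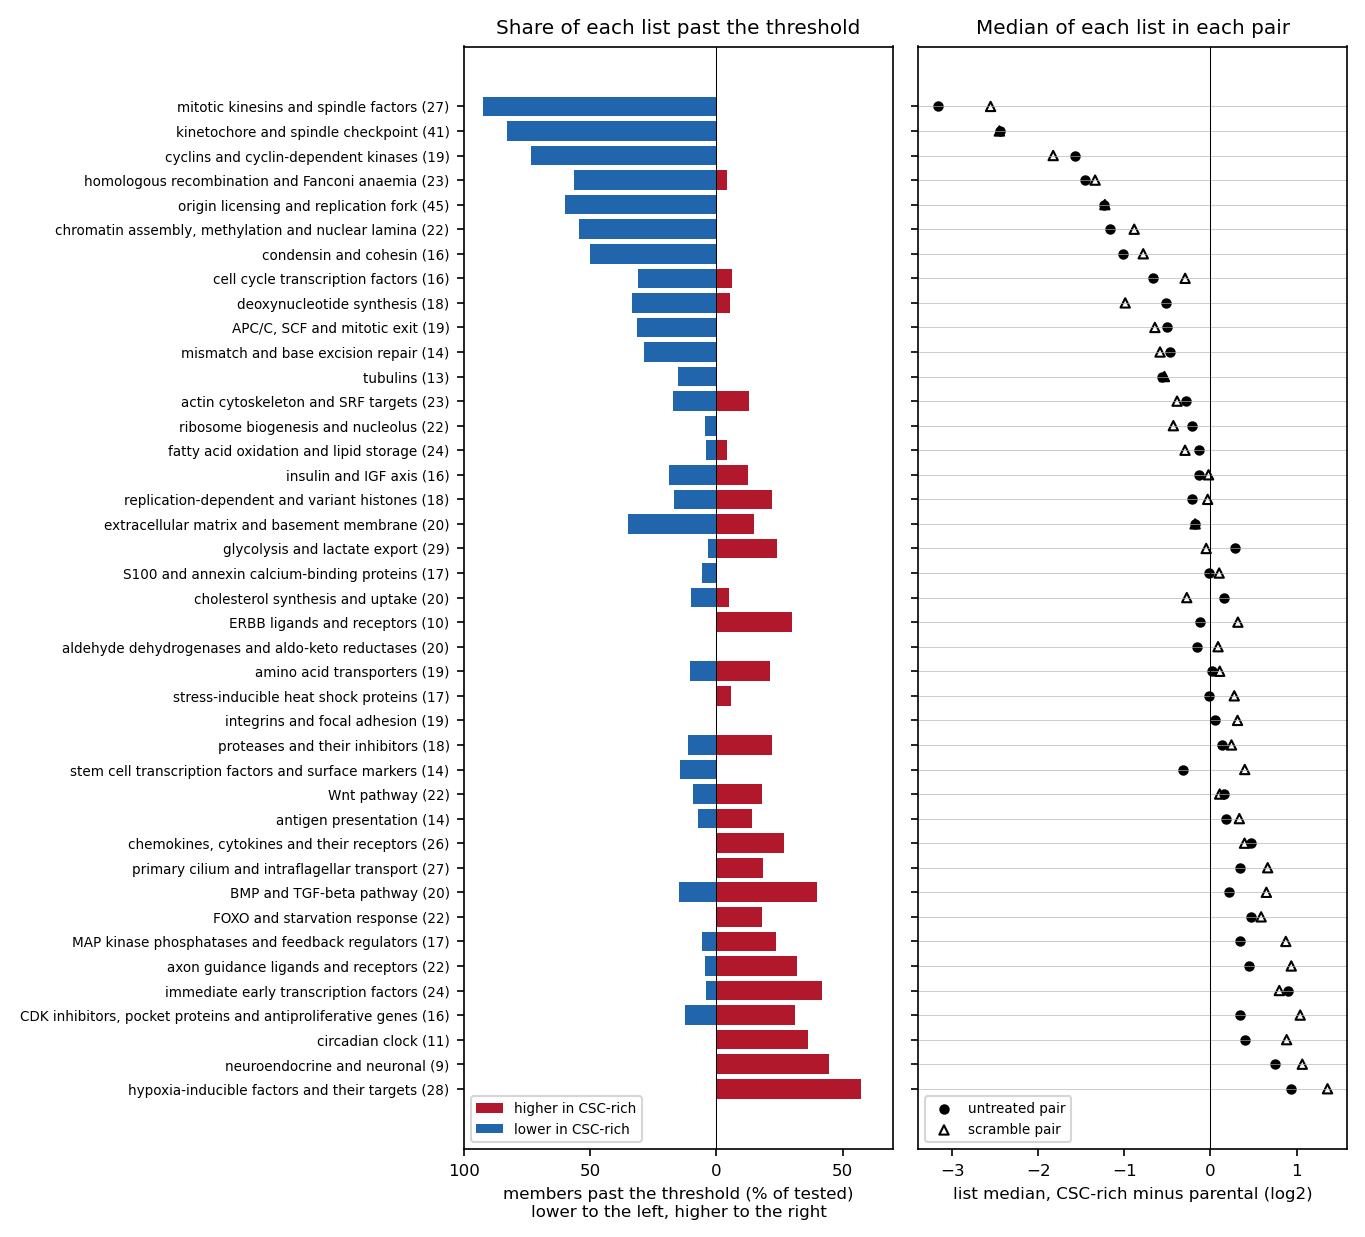
Left, the share of the tested members of each gene list past the threshold, lower in CSC-rich cells to the left and higher to the right, with the number tested in brackets; right, the median log2 difference CSC-rich minus parental in the untreated pair (filled circles) and the scramble pair (open triangles). Cell division lists stand at the top with medians down to -2.90 over both pairs, and hypoxia targets at the bottom with 1.13.

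Hypoxia-inducible factors and their targets were the list with the highest median, 1.13, and 16 of 28 tested members were higher and none lower, 12 of them at least 2-fold in both pairs. STC1, a secreted glycoprotein that low oxygen induces, rose most of all genes tested by the smaller of its pair differences. Its log2 signals were 11.46 and 11.85 in CSC-rich cells, against 6.86 and 6.63 in parental cells, a 30.1-fold rise (log2 4.91 ± 0.32, limma adjusted p 1.5e-05). BNIP3L, a receptor for the removal of mitochondria, was at 12.20 and 12.67 in CSC-rich cells, against 9.57 and 8.93 in parental cells. ANKRD37 was at 9.66 and 9.65 in CSC-rich cells, against 7.27 and 7.20 in parental cells. The populations did not overlap for any of these, and the arrays of a population lay close together for ANKRD37.

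Growth factors and regulators of the pathway were among the targets that rose. VEGFA, which makes blood vessels grow, was at 9.75 and 10.17 in CSC-rich cells, against 8.27 and 7.88 in parental cells (log2 difference 1.88 ± 0.33, limma adjusted p 0.0032). ANGPTL4 (2.58), the repressor BHLHE40 (2.52), EGLN3, an oxygen-sensing hydroxylase (1.97), the demethylase KDM3A (1.66), P4HA1, which modifies collagen (1.48), and BNIP3 (1.11) were also higher. The factors themselves, HIF1A (1.56) and EPAS1 (1.01), passed the test, though the probes of HIF1A and of ANGPTL4 disagreed in size or sign. Not every target moved: ADM (-0.18), DDIT4 (0.20), CA12 (0.26), EGLN1 (0.07) and VHL (-0.46) did not pass the test, and CA9 and LOX were not tested. Of the 16 calls, 12 held with median scaling, 10 without normalization and 12 without the scramble array of parental cells.

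The core of the hypoxia response element, ACGTG on either strand, was found in 52.2% of the 23 promoters of this list. It was in 44.4% of those of the glycolysis list and 26.2% of those of tested genes. The core was not particular to these lists, at 58.8% for ribosome biogenesis, 54.5% for circadian genes and 50% for deoxynucleotide synthesis. Among all higher genes it was in 25.9%, and no relation to the differences was tested. Promoters of 2 risen targets follow, ANKRD37 over the first 150 bases of its window and P4HA1 from 120 before to 30 after its start, with the core on either strand in capitals.
ANKRD37, chr4:185396591-185396740, plus strand: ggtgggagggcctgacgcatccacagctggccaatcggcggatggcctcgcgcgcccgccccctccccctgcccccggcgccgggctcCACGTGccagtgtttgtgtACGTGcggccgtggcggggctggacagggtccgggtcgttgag
P4HA1, chr10:73096837-73096986, minus strand: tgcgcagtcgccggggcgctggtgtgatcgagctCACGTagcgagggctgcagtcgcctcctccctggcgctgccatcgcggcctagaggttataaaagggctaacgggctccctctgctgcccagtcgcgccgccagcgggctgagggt

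Glycolysis did not move as one. Of 29 tested members 7 were higher and 1 was lower, and the median, -0.08, was 0.29 in the untreated pair and -0.05 in the scramble pair. The members that rose were regulators and particular isoforms. SLC2A3, a glucose transporter, was at 14.16 and 14.59 in CSC-rich cells, against 12.54 and 12.53 in parental cells (log2 difference 1.84 ± 0.31, limma adjusted p 0.0027). PDK1 (1.07), PDK3 (1.89) and PDK4 (2.03), kinases that inhibit pyruvate dehydrogenase, were higher. So were PFKFB4 (1.78 and 2.21 in the untreated and scramble pairs), which sets the rate of glycolysis, and the isoforms ALDOC (1.44) and ENO2 (1.90). The common enzymes of the path were not: LDHA (-0.08), PGK1 (-0.03), ENO1 (-0.39), PKM (-0.12) and the transporter SLC2A1 (-0.13) did not pass the test. PGAM1 was at 10.73 and 8.82 in CSC-rich cells, against 11.43 and 12.41 in parental cells. Its fall was carried by the scramble pair and was lost with median scaling, without normalization and without the treatment term.

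**Figure D4:**
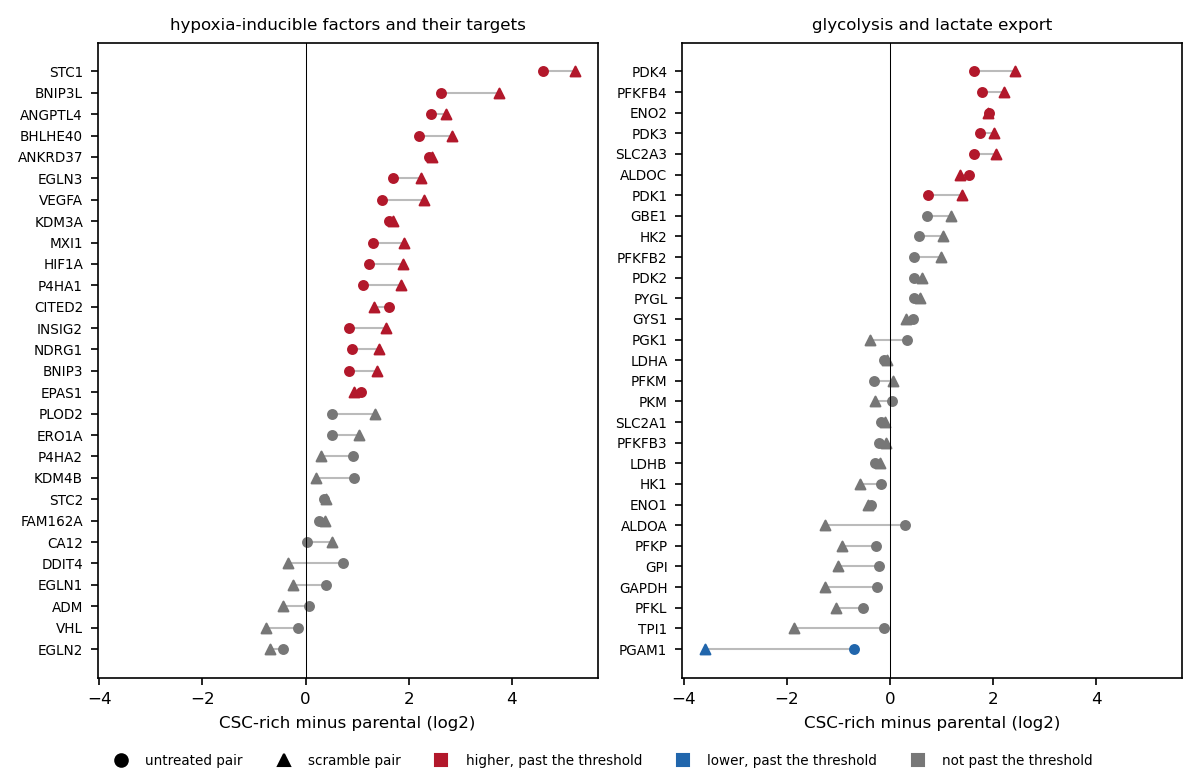
Log2 difference CSC-rich minus parental of each tested member of the hypoxia list (left) and the glycolysis list (right), in the untreated pair (circles) and the scramble pair (triangles), coloured by whether the gene passed the threshold. In the hypoxia list 16 of 28 members pass and all 16 lie right of 0, while in the glycolysis list 7 pass on the higher side and PGAM1 alone on the lower side.

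Immediate early genes are switched on within minutes of a signal and mostly encode transcription factors. Of 24 tested, 10 were higher and 1 was lower, with a median of 0.73. FOS was at 9.84 and 10.11 in CSC-rich cells, against 7.53 and 7.55 in parental cells (log2 difference 2.43 ± 0.31, limma adjusted p 0.00049). Its sister FOSB was at 7.06 and 7.48 in CSC-rich cells and was not detected in parental cells, so that it was at least 2.98-fold higher. JUN, its partner (2.07), the Krüppel-like factors KLF4 (1.56) and KLF2 (1.46), and EGR1 (1.39) were higher too. FOSL1, of the same family as FOS, was lower (-1.13). JUNB (0.56), IER3 (0.00) and ATF3 (0.60) did not pass the test.

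Phosphatases and inhibitors that such signals induce, and that then damp them, rose in part: 4 of 17 tested were higher and 1 lower. DUSP1, which removes phosphate from MAP kinases, was at 13.37 and 13.88 in CSC-rich cells, against 11.14 and 10.86 in parental cells (log2 difference 2.63 ± 0.33, limma adjusted p 0.00045). The receptor inhibitors SPRY1 (1.97) and SPRY2 (1.25) were higher. DUSP6, which follows ERK activity, did not pass the test (0.97), nor did its companion SPRY4 (0.89).

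Factors of the response to missing growth factors were mostly above 0, with 4 of 22 tested higher (18.2%, beside 9.54% of all genes), none lower and a median of 0.52. BCL6, a repressor and FOXO target, was at 10.50 and 11.01 in CSC-rich cells, against 9.06 and 8.71 in parental cells (log2 difference 1.87). FOXO3 (1.19), IRS2 (0.98) and FBXO32 (1.26) were the others, and of these 4 calls BCL6 alone held with median scaling. In the insulin and IGF axis, 2 of 16 were higher and 3 lower. IGFBP3, which binds insulin-like growth factors, was at 12.47 and 11.95 in CSC-rich cells, against 9.08 and 9.71 in parental cells (log2 difference 2.82 ± 0.35, limma adjusted p 0.00045), while IGFBP6 (-2.06), IGFBP2 (-1.63) and IGFBP7 (-1.31) fell. The populations did not overlap for any of these 4 binding proteins. Among ERBB genes, the ligand TGFA was at least 2.45-fold higher, and the receptor inhibitors LRIG1 (1.98) and ERRFI1 (1.70) rose, whereas the receptors EGFR (-0.32) and ERBB2 (-0.55) did not pass the test.

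Secreted signals and their receptors gave 7 higher and no lower of 26 tested. CCL20, a chemokine for lymphocytes and dendritic cells, was at 11.62 and 12.01 in CSC-rich cells, against 8.69 and 8.44 in parental cells, a 9.53-fold rise. CXCL8 (interleukin-8) was at 14.76 and 15.30 in CSC-rich cells, against 13.40 and 13.09 in parental cells. IL1B and IL4R were detected on both CSC-rich arrays and no parental array, IL1B at least 2.17-fold and IL4R at least 3.996-fold higher. IL13RA2, a decoy receptor for interleukin-13, was at 8.97 and 9.37 in CSC-rich cells and not detected in parental cells, where its signals were 4.97 and 5.19, and it was at least 11.1-fold higher (limma adjusted p 2.3e-05). IL6 (-0.06), CXCL1 (0.40) and CXCL2 (-0.15) did not pass the test.

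TGF-beta and BMP genes changed on both sides, with 8 higher and 3 lower of 20 tested. Receptors and their signal carriers were on the higher side: TGFBR2 was at 9.88 and 10.37 in CSC-rich cells, against 8.39 and 8.08 in parental cells (log2 difference 1.89), with the ligand TGFB2 (1.55), BMPR2 (1.37) and SMAD5 (1.15). BMP7, a ligand, was at 6.53 and 6.93 in CSC-rich cells, against 9.09 and 9.06 in parental cells (log2 difference -2.35 ± 0.31, limma adjusted p 0.00067), and the BMP target ID3 fell by 2.09 on the log2 scale. Of the 8 higher calls, 3 held with median scaling and 2 without normalization. In the Wnt pathway, the ligand WNT5A rose (1.98) and the inhibitor DKK1 fell (-2.05), among 4 higher and 2 lower of 22. AXIN2, a usual target of the pathway, was at 7.64 and 8.10 in CSC-rich cells, against 6.77 and 6.47 in parental cells (log2 difference 1.25). Of the 4 higher Wnt calls, 1 held with median scaling and 1 without normalization.

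Matrix genes were called on both sides, with more of them lower. SVEP1, a large extracellular adhesion protein, was at 9.42 and 9.57 in CSC-rich cells, against 5.41 and 5.30 in parental cells, where it was not detected, and was at least 13.9-fold higher (limma adjusted p 2.2e-05). LAMB3, a laminin chain of the epithelial basement membrane, fell to 7.10 and 6.58 in CSC-rich cells, against 9.36 and 9.41 in parental cells. The matrix list gave 3 higher of 20 (15%, beside 9.54% of all genes) and 7 lower (35%, beside 7.79%). Of the 20, 13 were below 0, and the median was -0.12. None of the 19 tested genes of integrins and focal adhesions passed the test, 12 of them above 0 and 7 below. Their largest differences were those of ITGAV (1.10) and CAV1 (-0.95). Matrix proteases split: MMP1 rose, by 2.07 on the log2 scale in the untreated and 2.80 in the scramble pair, and MMP10 fell to 7.40 and 7.61 in CSC-rich cells, against 11.23 and 11.62 in parental cells. TIMP1, an inhibitor of such proteases, rose by 1.39 on the log2 scale, and PLAUR, the urokinase receptor, by 2.01. Probes of PLAUR disagreed in size or sign.

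Cytoskeletal genes were called on both sides. Of 23 actin genes 3 were higher, beside 9.54% of all genes, with CCN2 (1.39), ACTA2 (1.53) and TAGLN (1.77), and 4 lower (17.4%, beside 7.79% of all genes), among them TAGLN2 (-2.16). Of 13 tubulin genes 2 were lower: STMN1, which takes microtubules apart and is high in dividing cells, fell (-3.23), as did TUBB4B (-1.52), while TUBB3 (-0.01) and TUBA1A (-0.57) did not pass the test. Other probes of STMN1 disagreed in size or sign.

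Genes of several other programmes were higher in smaller number. Among axon guidance genes, 7 of 22 were higher and 1 lower. SEMA6A, a membrane semaphorin, was at 9.93 and 10.37 in CSC-rich cells, against 7.73 and 6.74 in parental cells (log2 difference 2.91 ± 0.37, limma adjusted p 0.00053). NRP2, a semaphorin receptor, passed the test at 1.24, but other probes of it gave the opposite sign. The primary cilium, a signalling antenna that cells build when they stop dividing, had 5 of 27 genes higher (18.5%, beside 9.54% of all genes) and none lower, among them IFT88 (1.35), TCTN1 (1.74) and BBS1 (1.14), with a median of 0.43. RFX3, a factor that switches on cilium genes, was at 8.02 and 8.97 in CSC-rich cells, against 5.29 and 5.39 in parental cells by its brightest probe, which was not detected there, but another probe of RFX3 was detected on both parental arrays, so no bound is given. Of the 5 cilium calls, 3 held with median scaling and 1 without normalization.

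Circadian genes gave 4 higher and none lower of 11, with PER2 at 9.46 and 10.15 in CSC-rich cells, against 8.40 and 8.14 in parental cells (log2 difference 1.53), beside CRY2 (1.14), NFIL3 (1.69) and RORA (1.71). Neuroendocrine and neuronal genes gave 4 higher and none lower of 9. INSM1, which directs neuroendocrine development, was at 9.88 and 10.32 in CSC-rich cells, against 7.44 and 7.20 in parental cells (log2 difference 2.78 ± 0.32, limma adjusted p 0.00028), and the secretory granule protein CHGA (-0.10 and 0.10 in the untreated and scramble pairs) did not pass the test. Of the defining markers of neuroendocrine cells, NEUROD1 and SYP missed the detection filter.

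Most metabolic and stress lists had shares of calls near or under those of all genes, 9.54% higher and 7.79% lower. Their single calls are therefore no result about the lists. Amino acid transporters gave 4 higher (21.1%, beside 9.54% of all genes), among them SLC38A2 (1.37), and 2 lower (10.5%, beside 7.79%), SLC1A5 (-1.08) and SLC1A3 (-1.10), of 19. Cholesterol synthesis gave 1 higher (5%), SC5D (1.73), and 2 lower (10%), EBP (-2.31) and MVK, of 20. Fatty acid oxidation gave CPT1B higher (1.48) and HADH lower (-1.15 and -0.85 in the untreated and scramble pairs) of 24, 4.17% in each direction. Of 17 heat shock genes HSPA6 alone passed the test (5.88%), while HSPA1A (0.92) and DNAJB1 (-0.57) did not. HSPA6 was at 10.70 and 11.03 in CSC-rich cells, against 7.32 and 7.42 in parental cells, an 11.3-fold rise (limma adjusted p 4.7e-05). In ribosome biogenesis, NHP2 (-1.99) was the single call of 22 (4.55%). Of these 22 genes 19 lay below 0 and 3 above, with a median of -0.30 beside 0.09 for all genes. MYC, which drives ribosome biogenesis, had a log2 difference of -0.27.

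The name of the population was checked against stem cell genes. Of 28 listed transcription factors and surface markers, 14 could be tested: none was higher, and NES (nestin, -1.71) and SNAI2 (-1.48) were lower. SOX2, a stem cell transcription factor, was at 8.28 and 8.86 in CSC-rich cells, against 8.64 and 8.03 in parental cells. CD44, a surface marker, was at 12.89 and 13.31 in CSC-rich cells, against 12.88 and 12.62 in parental cells. The populations overlapped for SOX2, with differences of -0.36 in the untreated and 0.83 in the scramble pair, and CD44 differed by 0.01 and 0.68. ALDH1A1, whose enzyme activity is used to sort stem-like cells, differed by -0.55 and 0.64, and ABCG2, a drug pump, by -0.49 and 0.07. PROM1, NANOG and POU5F1 missed the detection filter, so no test was made. None of 20 tested aldehyde dehydrogenases and aldo-keto reductases passed the test, ALDH1A3 (-0.97) being the lowest and ALDH5A1 (0.69) the highest. Since 9.54% of all genes were higher, a count of 0 among 14 lies near the share of all genes and is not a result about the stem cell list, and a p that misses the threshold does not show equal levels.

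Markers of other cells were checked beside these results. The epithelial keratins KRT8 (-1.65) and KRT19 (-1.61) were lower in CSC-rich cells, and CDH1, EPCAM and KRT18 were not detected on any of the 4 arrays. Endothelial markers were not detected on any array: PECAM1, CDH5, VWF, KDR and TEK, 5 of 5. Of 7 fibroblast markers, LUM (2.07) and PDGFRB (1.41) were higher and COL3A1 (-3.89) was lower, with COL1A1 and THY1 never detected. Their summed signal was 3394 and 4731 in CSC-rich cells, against 7205 and 5247 in parental cells. Of 6 immune markers 2 could be tested, and they went in opposite directions. CD68, a lysosomal protein used as a macrophage marker, rose by 1.25, and the other lay below 0. PTPRC and CD3E, which define leukocytes and T cells, were never detected. The summed signal of the 6 immune markers was 4443 and 6260 in CSC-rich cells, against 2225 and 2663 in parental cells. The part of other cells in the results was not tested.

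The genes highest in CSC-rich cells by the smaller of the pair differences were, after STC1, SVEP1 and IL13RA2, ESM1, a secreted proteoglycan of vessels and tumours, H2BC5, AMDHD1, KDM5B, HSPA6, AMY2A, TMEM158, H4C8, CCL20, TMEM45A, ANKRD29 and HAL. ESM1 was at 12.99 and 13.41 in CSC-rich cells, against 9.20 and 8.66 in parental cells, a 19.3-fold rise. KDM5B, a histone demethylase reported as a mark of slowly cycling melanoma cells, was at 10.66 and 10.91 in CSC-rich cells, against 7.10 and 6.98 in parental cells (log2 difference 3.74 ± 0.31, limma adjusted p 3.2e-05). TMEM158, a membrane protein that rises with active Ras, was at 13.83 and 13.88 in CSC-rich cells, against 10.77 and 10.93 in parental cells. The 2 arrays of each population lay close together for KDM5B and TMEM158. Adjusted p-values of these 15 genes lay between 1.5e-05 and 0.00015 in limma's fit. On the other side stood AURKB, KIF4A, CDCA3, CENPA, KIF20A, UBE2C, CCNB2, FOXM1, PIMREG, TK1, CDCA2, KIFC1, BIRC5, TPX2 and PTTG3P, with adjusted p-values between 9.3e-06 and 2.3e-05. PTTG3P is a pseudogene nearly identical to PTTG1, so which of them its probe reads is uncertain. BIRC5 (survivin), which joins AURKB in the passenger complex, was at 7.33 and 7.96 in CSC-rich cells, against 12.24 and 12.20 in parental cells.

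**Figure D5:**
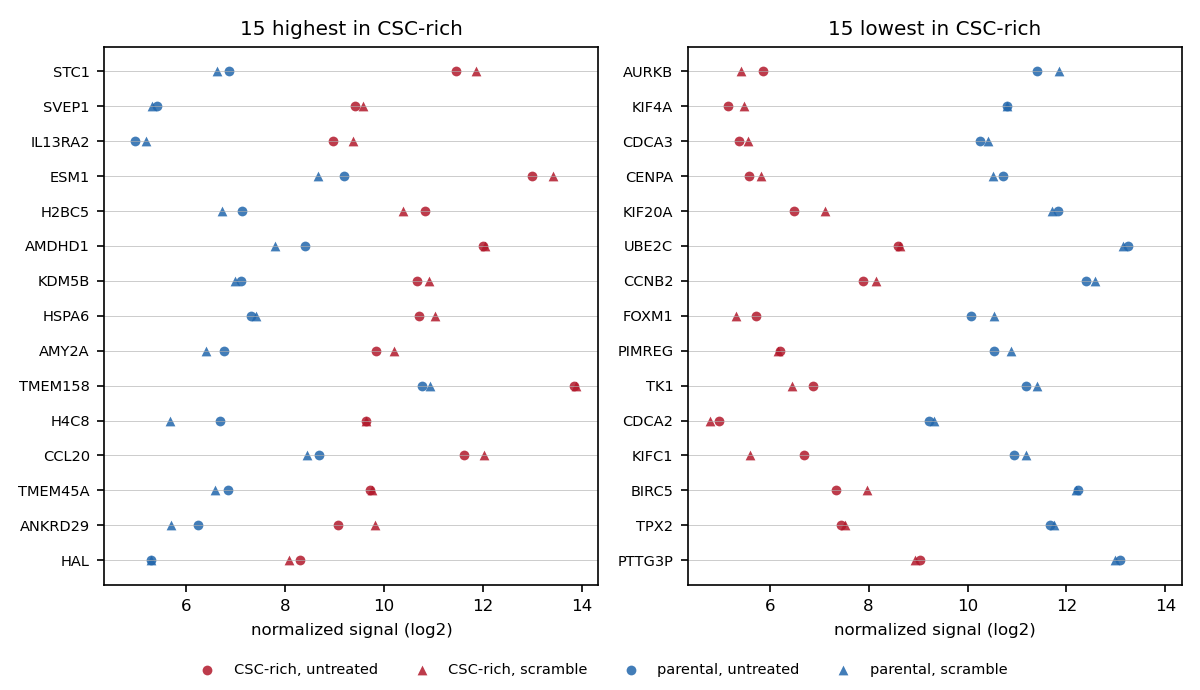
Normalized log2 signals of the 15 highest (left) and 15 lowest (right) genes on the 4 arrays, CSC-rich in red and parental in blue, untreated as circles and scramble as triangles. For all 30 genes both red symbols lie on one side of both blue symbols, which their choice by the smaller pair difference largely fixed beforehand. Several genes sit at the dim end of the scale in one population, such as IL13RA2 in parental and KIF4A in CSC-rich cells.

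Some genes were detected in one population alone. On both CSC-rich arrays and no parental array, 226 genes were detected (1.92%), and on both parental arrays and no CSC-rich array 305 (2.6%). The largest bounds in the first set after SVEP1 and IL13RA2 belonged to ABCA6, a lipid transporter (at least 5.91-fold higher), HAL, which breaks down histidine (5.64-fold), BEND6 (5.45-fold) and IDUA, a lysosomal enzyme (4.65-fold). The call of IDUA was lost without normalization. In the second set KIF4A and CENPA were followed by CDCA3, a trigger of mitotic entry (at least 22.9-fold lower), FAM72D (13.4-fold), CDCA2 (10.9-fold) and MKI67. FAM72D has near-identical copies, so which copy its probe reads is uncertain.

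The pairs had unequal sizes. In the untreated pair 823 genes were at least 2-fold higher (7%) and 725 at least 2-fold lower (6.17%), while in the scramble pair 1908 were higher (16.2%) and 1592 lower (13.5%). Of the untreated pair's genes, 80.1% of the higher and 75% of the lower were at least 2-fold in the scramble pair too. Those shared genes made up 34.5% and 34.2% of the scramble pair's. Over all genes the pair differences had a Pearson r of 0.75 and a Spearman rho of 0.69, across genes, which are not independent replicates. Of all genes tested only BCR (0.00851%) was at least 2-fold in opposite directions, at 7.45 and 5.47 in CSC-rich cells, against 6.43 and 6.93 in parental cells.

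Between scramble and untreated arrays of the same population, 482 genes differed at least 2-fold in CSC-rich cells (4.1%), 99 higher and 383 lower with scramble, against 90 in parental cells (0.766%). The scramble array of CSC-rich cells also had the smallest share of detected probes, 38.5%, against 42.5% to 42.8% on the other 3 arrays. Both scramble arrays moved in genes that were 2-fold in the scramble pair only. For the 1249 higher ones the median scramble minus untreated difference was 0.47 in CSC-rich and -0.35 in parental cells. For the 1048 lower ones it was -0.72 and 0.40. The part of either array in the wider scramble pair was not tested. TNFRSF12A, a receptor for the cytokine TWEAK, illustrates a difference of the scramble pair alone, with 0.32 in the untreated pair and -2.48 in the scramble pair, and did not pass the test.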

How the data were processed

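Gene expression was measured in total RNA on Illumina BeadChips, 1 array per group. The table the authors deposited gives a linear intensity per probe (47323 in all) and array. Beside it the deposited table has a detection p-value, which ranks the probe among the negative controls. The submitters' processing notes name GenomeStudio 2011.1 and no further step. The deposited intensity values were not normalized between arrays. A platform annotation gave 30113 probes 1 gene symbol and 8 several, leaving 17202 outside it.

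The 4 arrays were background-corrected with limma's neqc (limma 3.58.1, R 4.3.3, offset 16, background from the detection p-values), then quantile-normalized, and the deposited signals were thus taken to a log2 scale. The brightest probe detected on at least 2 of the 4 arrays stood for its gene. The model held population and treatment, with 1 residual degree of freedom and a prior of 10.1. P-values rest on how far the untreated and the scramble difference of a gene disagree, moderated across genes. They do not measure the spread between cultures of a population, and the disagreement may be technical. A gene detected on neither array of a population has only a bound there: "at least N-fold" sets the mean of the brighter population against, per dim array, the higher of the lowest detected signal and the gene's own. On simulated data the test recovered nearly all 4-fold and fewer 2-fold changes, and made more false calls than its threshold states.

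Genes named were the 15 highest and 15 lowest past the threshold by the smaller pair difference (official symbols only, without open reading frames, LOC or clone names), the 6 largest bounds per direction, the 5 largest opposite pairs, list members, and CD44, SOX2, PROM1, NANOG, POU5F1, ALDH1A1, ABCG2, MKI67, CDKN1A, CDKN1B and CDKN1C. Which list members are named, and the RNA families of the closing section, were chosen after their values were seen. The comparison, gene lists and motifs were chosen with earlier results of these data known, so no list is independent evidence. Promoters come from RefSeq, GRCh38.p14.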

Additional observations from a re-analysis of the deposited data

Results flagged for a closer look

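The effect of population had opposite signs in the untreated and scramble pairs for 5 named genes, chosen as those with the largest opposite differences. The scramble minus the untreated difference was -2.49 on the log2 scale for BCR, 2.80 for CPM, a membrane carboxypeptidase, 1.89 for PRIM2, a primase subunit, 2.83 for PPID, a cyclophilin, and -1.90 for CASP8, a protease of programmed cell death. None of these differences between pairs was tested, since each pair is 1 array against 1. CPM had log2 signals of 6.90 and 8.71 on the untreated and scramble arrays of CSC-rich cells, against 7.88 and 6.90 in parental cells, so the populations overlapped. For PRIM2, BCR and CASP8, 1 array of CSC-rich cells lacked a detected signal, and for CASP8 1 parental array did too.

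The medians of 7 gene lists also had opposite signs in the pairs, and these differences were not tested either. The scramble minus the untreated median was -0.33 for glycolysis, 0.44 for ERBB ligands and receptors, -0.44 for cholesterol synthesis, 0.25 for aldehyde dehydrogenases, 0.72 for stem cell genes, 0.12 for S100 and annexin genes and 0.30 for heat shock proteins. The median of all genes was 0.04 in the untreated pair and 0.14 in the scramble pair.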

How the results depend on the processing

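The count of calls depended on the setting. It was 2036 as reported, 2931 without the treatment term (1705 higher), 1438 with median scaling (617 higher), 940 without normalization (335 higher, 605 lower) and 279 over all 6 arrays (101 higher, 178 lower), all 279 of them among the 2036. Without the detection filter limma called 0 of 20046 genes (0 higher, 0 lower), with 4215 at an unadjusted p under 0.05. Leaving out 1 array gave 1477 to 4991 calls (771 to 2791 higher, 706 to 2200 lower), with 4991 without the untreated CSC-rich array, and the lone array is then assumed to vary like the others. At least 2-fold in both pairs, 211 genes were higher without normalization, against 659, and the scramble pair alone had 1908 higher and 1592 lower. The other settings kept each of these counts within 1.5 times. Of 345 named or listed genes, 304 kept their side of the threshold with median scaling, 264 without normalization and 133 over 6 arrays. Only NRP2 (-1.96 over 6 arrays, -0.59 with probes averaged) and UHRF1 (0.085 over 6 arrays) changed sign. The causes were not tested, except that fewer or more genes enter the filters. A sign change counted only where a call was at stake. In the PNAs-A15 pair, added after seeing the data, 797 of the 1121 higher (71.1%, beside 45.2% of all genes) and 695 of the 915 lower genes (76%, beside 54.8%) had the same sign.

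The reported model is itself paired by treatment, its treatment term setting each CSC-rich array beside its parental one; without that term 2931 genes passed. The labels number no replicates, so no further replicate block was fitted. With 1 residual degree of freedom the prior decides much of each adjusted p, so calls near the threshold are the least firm, and probes near background limit the size of the falls. Of 538 called genes with over 1 kept probe, 474 had all probes of the same sign. For 336 of the 538, the log2 difference of each other probe had the same sign and was at most 2 times smaller.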

Other observations

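Small non-coding RNAs, a group chosen after the values were seen and given with no test of the group, lay mostly below 0 in CSC-rich cells. Of 62 tested box H/ACA small nucleolar RNAs, which guide the conversion of uridine to pseudouridine, 17 were lower and 1 higher, 51 were below 0 and the median was -0.49. Small Cajal body RNAs gave 7 lower and none higher of 16, with a median of -0.69. Box C/D small nucleolar RNAs gave 9 lower and 2 higher of 63, with a median of -0.15. Of all genes 7.79% were lower and 9.54% higher. RNA polymerase III and telomerase RNAs, the last family, were divided, with 4 lower and 1 higher of 10 and 6 below 0. RPPH1, the RNA of ribonuclease P, was at 7.64 and 7.79 in CSC-rich cells, against 9.89 and 9.76 in parental cells (log2 difference -2.12). TERC, the RNA of telomerase, was at 6.49 and 6.19 in CSC-rich cells, against 8.04 and 8.52 in parental cells (log2 difference -1.93). RN7SK, which holds back transcript elongation, went the other way, with a log2 difference of 1.26. RNY3 (0.28), RNY5 (0.10) and VTRNA2-1 (0.73) of the same family also lay above 0 but did not pass the test.

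Histidine breakdown appeared through its enzymes. HAL and AMDHD1 were higher, AMDHD1 by 3.60 on the log2 scale in the untreated and 4.24 in the scramble pair, and UROC1, the enzyme between them, had a log2 difference of -0.05. Amylase genes AMY2A (3.45) and AMY2B (2.86) were higher, whereas AMY1A (0.01) and AMY1C (-0.24) did not pass the test, and these copies are nearly identical, so the gene read by a probe is uncertain. Among probes with no gene name, 134 were at least 2-fold higher and 155 at least 2-fold lower in both pairs, of 5063 kept.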
